A study of Rattus norvegicus with 10 samples.

Results

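Insig1, Idi1, Fdps, Fdft1, Sqle, Lss, Cyp51 and Hmgcs1 are 8 sterol genes of the rat that were followed here across kidneys from 5 diet groups. They were named by symbol, and each gene was read from the annotated probe set with the highest mean over the 10 arrays. Of the 8 genes, 7 had an annotated probe set, among 14506 named genes and 29214 probe sets in all. Hmgcs1, the cytosolic synthase that makes HMG-CoA, was not analysed here. The 7 measured genes are 6 enzymes of synthesis and 1 regulator, and none of them takes up cholesterol, so genes of uptake were described as a separate list.

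The study fed male weanling Wistar rats for 6 days on diets with or without choline, with vegetable or fish oil as the fat, and measured kidney RNA on expression arrays. By its title it asked about the acute renal failure that choline deficiency causes and the protection that fish oil gives. Each array carried 1 pool of 3 animals, and each group had 2 arrays, so the spread within a group is between pools and not between single animals. The necrotic group had the choline-deficient diet with vegetable oil and kidneys labelled necrotic. The deficient vegetable oil group had the same diet without that label, and the control vegetable oil group had choline with vegetable oil. The deficient fish oil group had no added choline and menhaden oil, and the control fish oil group had choline with menhaden oil. The protocol names corn and hydrogenated oils as the vegetable fat, the sample labels name corn oil alone, and neither states how necrotic kidneys were set apart.

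Cells make cholesterol from acetyl-CoA through mevalonate, isoprenoid phosphates, squalene and lanosterol. The genes of this route are known as targets of SREBP2, a membrane-bound transcription factor that leaves the endoplasmic reticulum when sterols are low, and the INSIG proteins hold it there when sterols are high. In the kidney, tubule cells are known to accumulate cholesterol after acute injury.

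Promoters were taken from the RefSeq table for the GRCr8 build, 250 bases before to 50 bases after each start site, and 5 of the 7 measured genes had an entry. Sqle and Fdft1 are named only. A sterol regulatory element, searched on both strands as TCACNCCAC, was in none of the 5 promoters and in 1.12% of the 33469 promoters of the table. A CCAAT box, searched on both strands as CCAAT or ATTGG, was in 4 of the 5 and in 37.5% of all promoters. Both motifs were chosen with these promoters in view, and a match is only a match of letters. The promoter of Insig1 is shown because that gene was called between the oils, and those of Idi1 and Cyp51 because their levels were the closest pair over the 10 arrays. The Insig1 window is chr4:8057720-8058019 on the minus strand, the Idi1 window is chr17:66547475-66547774 on the minus strand and the Cyp51 window is chr4:30991443-30991742 on the plus strand. Capitals mark CCAAT boxes in either orientation, and the Cyp51 window holds none.
Insig1: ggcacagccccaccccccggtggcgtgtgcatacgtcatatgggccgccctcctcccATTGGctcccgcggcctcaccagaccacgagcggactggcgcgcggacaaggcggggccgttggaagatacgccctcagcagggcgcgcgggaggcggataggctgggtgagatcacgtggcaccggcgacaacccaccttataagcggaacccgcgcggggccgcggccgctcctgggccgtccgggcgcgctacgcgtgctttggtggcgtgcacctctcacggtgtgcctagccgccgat
Idi1: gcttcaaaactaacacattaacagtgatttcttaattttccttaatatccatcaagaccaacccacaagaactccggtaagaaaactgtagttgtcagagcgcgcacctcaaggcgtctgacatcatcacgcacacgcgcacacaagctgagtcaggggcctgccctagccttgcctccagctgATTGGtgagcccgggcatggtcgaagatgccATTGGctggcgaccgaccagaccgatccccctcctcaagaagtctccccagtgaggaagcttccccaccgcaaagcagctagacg
Cyp51: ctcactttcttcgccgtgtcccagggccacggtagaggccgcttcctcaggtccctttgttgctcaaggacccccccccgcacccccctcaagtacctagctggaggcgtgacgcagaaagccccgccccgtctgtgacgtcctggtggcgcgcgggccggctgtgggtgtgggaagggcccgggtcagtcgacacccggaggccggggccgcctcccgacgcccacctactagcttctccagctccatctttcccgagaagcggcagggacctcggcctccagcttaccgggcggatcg
Counted from the start site, the first base of the box lies at -193 in Insig1 and at -66 and -35 in Idi1. Lss had 1 box, at -82, and Fdps had boxes at -130 and -85.

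All values below are log2 intensities as the authors deposited them, in which 1 unit is a doubling. A level of one gene cannot be set against that of another, because each probe set responds differently. A difference was called where its adjusted p from limma, over all 29214 probe sets, was under 0.05. Array medians lay between 7.28 and 7.43. Levels of cell type markers differed between the groups. The summed intensity of 12 proximal tubule markers was 26782 to 30925 in necrotic kidneys, 71678 to 83530 in deficient vegetable oil kidneys and 95862 to 99148 in control vegetable oil kidneys. It was 88456 to 94618 in deficient fish oil kidneys and 89268 to 93828 in control fish oil kidneys. The sum of 9 macrophage markers was 11727 to 12041 in necrotic, 4825 to 6659 in deficient vegetable oil and 2972 to 3182 in control vegetable oil kidneys, against 2340 to 2507 in deficient fish oil and 2307 to 2509 in control fish oil kidneys. Adrenal cortex markers, whose cells make sterols for steroid hormones, summed to between 669 and 874 on every array, but single markers moved. Of the 8 measured, 1 was called higher in deficient than in control vegetable oil kidneys. Another comparison, deficient fish oil against deficient vegetable oil kidneys, had 1 called lower, as had necrotic against control vegetable oil kidneys. In bulk tissue, fewer cells of a type and less RNA per cell cannot be told apart.

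Fdft1 (probe set 10784454) had the clearest change among the measured genes. It encodes squalene synthase, which joins farnesyl units in the first step that leads to sterols alone. Its log2 intensity was 10.86 and 10.86 in necrotic kidneys, 12.76 and 12.05 in deficient vegetable oil kidneys and 12.26 and 12.18 in control vegetable oil kidneys. It was 12.04 and 12.14 in deficient fish oil kidneys and 12.35 and 12.09 in control fish oil kidneys. Both necrotic arrays lay more than 1 unit below every other array, and the other groups overlapped. Fdft1 was lower in necrotic than in control vegetable oil kidneys by -1.36 ± 0.21 on the log2 scale (SE, n = 2 arrays each, limma adjusted p = 0.00245), a fold of 0.389. Against deficient vegetable oil kidneys, on the same diet, it was lower by -1.54 ± 0.21 (limma adjusted p = 0.00335). In deficient fish oil kidneys it was higher than in necrotic kidneys by 1.23 ± 0.21 (limma adjusted p = 0.00378), a fold of 2.35. These comparisons share the necrotic arrays. In each of the 3 comparisons the call held under all 13 or 14 alternatives. Necrotic kidneys also had the lowest sums of proximal tubule markers and the highest of macrophage markers, whose part in the Fdft1 values was not tested.

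Idi1 (probe set 10799241) encodes the isomerase that interconverts the isoprenoid units from which farnesyl and longer chains are built. Idi1 read, in log2 units, 7.55 and 7.55 in necrotic, 9.16 and 7.90 in deficient vegetable oil and 8.92 and 8.48 in control vegetable oil kidneys. It was 7.85 and 7.72 in deficient fish oil and 8.36 and 7.22 in control fish oil kidneys. The necrotic arrays lay below both other vegetable oil groups, but the lowest value was a control fish oil array. The difference between necrotic and control vegetable oil kidneys was -1.16 ± 0.43 (SE, limma adjusted p = 0.0983) and missed the threshold. It was called in a fit of the 2 groups alone (limma adjusted p = 0.0112). The pools of the deficient vegetable oil group lay 1.26 apart and those of the control fish oil group 1.14 apart, gaps about as large as any difference between groups for this gene.

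Fdps (probe set 10940465), farnesyl diphosphate synthase, makes the compound at which sterol synthesis parts from protein prenylation and the ubiquinone and dolichol branches. Its levels on the log2 scale were 11.57 and 11.27 in necrotic, 12.04 and 11.59 in deficient vegetable oil and 11.71 and 11.45 in control vegetable oil kidneys. It was 11.34 and 11.15 in deficient fish oil and 11.64 and 11.40 in control fish oil kidneys. Every group overlapped at least one other, and the largest gap between group means, -0.57 ± 0.19 for deficient fish oil against deficient vegetable oil, was not called (limma adjusted p = 0.236).

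Sqle (probe set 10896772) encodes squalene epoxidase, the first step of the route that uses oxygen and a known control point. Log2 values of Sqle were 9.04 and 9.09 in necrotic, 9.37 and 8.59 in deficient vegetable oil and 9.17 and 8.73 in control vegetable oil kidneys. It was 8.59 and 8.04 in deficient fish oil and 8.53 and 8.06 in control fish oil kidneys. All 4 fish oil arrays lay below all 6 vegetable oil arrays, necrotic ones included, although the nearest arrays of the 2 oils both read 8.59. Unlike Fdft1, Sqle had nearly the same mean in necrotic and control vegetable oil kidneys, with a difference of 0.12 ± 0.29 and a 95% interval of -0.55 to 0.79. The fish oil difference was -0.66 ± 0.29 both with choline (limma adjusted p = 0.412) and without it (limma adjusted p = 0.4), and neither was called.

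Lss (probe set 10832378), lanosterol synthase, closes the sterol rings. For Lss the log2 values were 8.40 and 8.34 in necrotic, 8.83 and 8.25 in deficient vegetable oil and 8.90 and 8.97 in control vegetable oil kidneys. It was 8.47 and 8.60 in deficient fish oil and 8.78 and 8.39 in control fish oil kidneys. Both control vegetable oil arrays lay above every other array. The difference of necrotic from control vegetable oil kidneys was -0.56 ± 0.20 (SE, limma adjusted p = 0.082) and missed the threshold. It was called in a fit of the 2 groups alone (limma adjusted p = 0.028) and with 1 probe set per named gene (0.0441).

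Cyp51 (probe set 10853471) encodes the demethylase that acts on lanosterol. The arrays read Cyp51, in log2 units, at 10.08 and 9.97 in necrotic, 10.68 and 10.13 in deficient vegetable oil and 10.59 and 10.30 in control vegetable oil kidneys. It was 9.89 and 9.74 in deficient fish oil and 10.14 and 9.54 in control fish oil kidneys. The non-necrotic vegetable oil arrays lay above the necrotic and deficient fish oil arrays, and 1 control fish oil array reached into their range. The group means spanned 0.63, from control vegetable oil down to deficient fish oil, and no difference was called.

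Insig1 (probe set 10859880) encodes the regulator of SREBP processing, and is itself a known SREBP target. On the log2 scale Insig1 was 11.37 and 10.94 in necrotic, 11.65 and 11.57 in deficient vegetable oil and 11.01 and 10.68 in control vegetable oil kidneys. It was 10.62 and 10.17 in deficient fish oil and 10.72 and 10.35 in control fish oil kidneys. Both deficient vegetable oil arrays lay above every other array, and the arrays of both fish oil groups overlapped. Insig1 was lower in deficient fish oil than in deficient vegetable oil kidneys by -1.21 ± 0.21 on the log2 scale (SE, n = 2 arrays each, limma adjusted p = 0.0322), a fold of 0.432. That call ended in a fit of those 2 groups alone (limma adjusted p = 0.128). It also ended without any 1 of the 4 arrays, at adjusted p from 0.0645 to 0.209 and differences from -1.44 to -0.99. Insig1 was also lower in deficient fish oil than in necrotic kidneys, by -0.76 ± 0.21 (limma adjusted p = 0.0385). This call ended without necrotic replicate 1, at a limma adjusted p of 0.2, and without deficient fish oil replicate 2, at 0.225. It also ended with each array centred on its median, at a limma adjusted p of 0.0574, and in a fit of the 2 groups alone, at 0.0852.

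**Figure D1:**
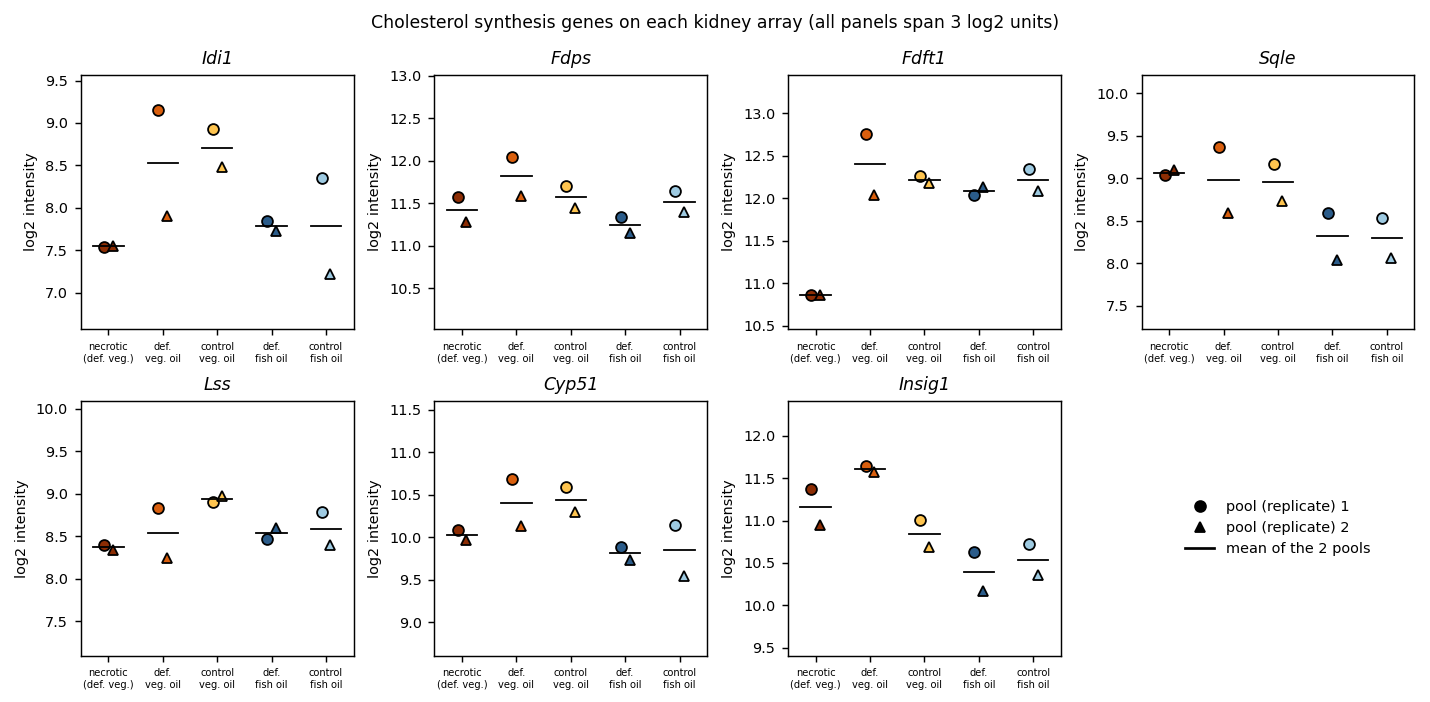
Log2 intensity (vertical axis, every panel spanning 3 log2 units) of the 7 measured genes by diet group, with circles for replicate 1, triangles for replicate 2 and a line at the mean of the 2 pools. Fdft1 stands at 10.86 on both necrotic arrays, below all others, and Insig1 is highest on the 2 deficient vegetable oil arrays, at 11.65 and 11.57.

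A second probe set of Insig1 (10861986) gave a partial check of that gene. This probe set read, in log2 units, 10.88 and 10.65 in necrotic, 11.18 and 10.69 in deficient vegetable oil and 10.58 and 10.22 in control vegetable oil kidneys. It was 10.18 and 9.85 in deficient fish oil and 10.11 and 9.78 in control fish oil kidneys. On this probe set the deficient vegetable oil arrays no longer stood apart, since replicate 2 fell within the necrotic range. Its difference between deficient fish oil and deficient vegetable oil kidneys was -0.92 ± 0.22 and was not called (limma adjusted p = 0.0863). Its difference between deficient fish oil and necrotic kidneys, -0.75 ± 0.22, was called (limma adjusted p = 0.0414).

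**Figure D2:**
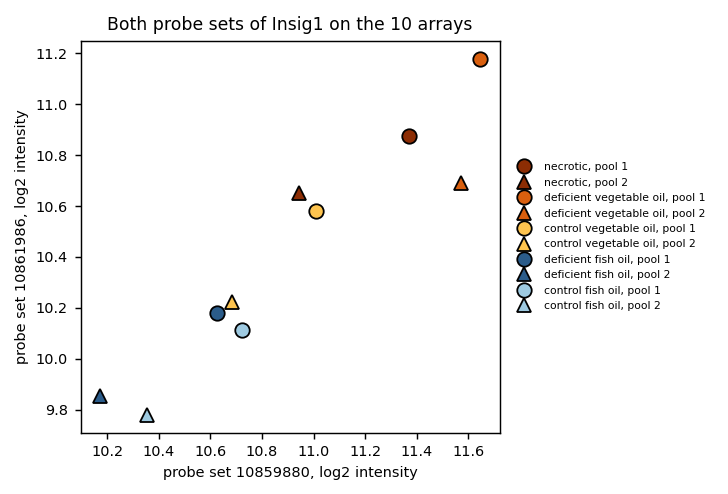
Log2 intensity of the 2 Insig1 probe sets against each other on the 10 arrays, coloured by group, with circles for replicate 1 and triangles for replicate 2. The fish oil arrays lie below every vegetable oil array on the vertical axis. On the horizontal axis control fish oil replicate 1, at 10.72, lies above control vegetable oil replicate 2, at 10.68. Deficient vegetable oil replicate 2 reads 11.57 on the horizontal axis but 10.69 on the vertical one.

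In the comparison of necrotic with control vegetable oil kidneys, Fdft1 was the 1 gene of 7 called, at a background of 20.9% of all probe sets called and 10.7% called lower. The share among the 7 genes is near that background. The median difference of the 7 was -0.42, against 0.06 over all probe sets. Centring each array on its median brought the median over all probe sets to -0.04. Idi1, Fdft1, Lss and Cyp51 lay lower on both necrotic arrays than on both control vegetable oil arrays, 4 of 7 genes, against 26.7% of all probe sets. Sqle and Insig1 were the 2 genes with positive differences, 0.12 ± 0.29 and 0.31 ± 0.21, neither of them called. Necrotic against deficient vegetable oil kidneys gave 1 call of 7, again Fdft1, at a background of 9.79% called and 5.08% called lower, and values from -1.54 for Fdft1 to 0.09 for Sqle.

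In kidneys without the necrotic label, choline deficiency under vegetable oil gave no call among the 7 genes, at a background of 1.13%. Insig1 had the largest difference between deficient and control vegetable oil kidneys, 0.76 ± 0.21 (limma adjusted p = 0.16). Its 95% interval from limma was 0.27 to 1.25. The second Insig1 probe set gave 0.53 ± 0.22 there (limma adjusted p = 0.296). The other genes lay between -0.39 for Lss and 0.24 for Fdps. Choline deficiency under fish oil gave no call among the 7 genes or among all probe sets, a background of 0%. At an unadjusted p under 0.05, limma passed 1036 of all probe sets and none of the 7. The differences between deficient and control fish oil kidneys ran from -0.27 for Fdps to 0.02 for Sqle.

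The oils were compared with choline and without it, on arrays that the 2 comparisons do not share. With choline, control fish oil minus control vegetable oil was negative for all 7 genes, as it was for 45.4% of all probe sets, and none was called at a background of 0.185%. The largest of these differences were -0.92 ± 0.43 for Idi1, -0.66 ± 0.29 for Sqle and -0.60 ± 0.24 for Cyp51, and that of Fdft1 was -0.00 ± 0.21. The median of the 7 was -0.35, against 0.03 over all probe sets. Without choline, deficient fish oil minus deficient vegetable oil was again negative for all 7, against 48.2% of all probe sets, with a median of -0.59 against 0.01. Insig1 was the 1 gene called, at a background of 1.74% called and 1.39% called lower. The value for Lss, -0.01, turned to 0.054 with each array centred on its median and to 0.024 with quantile normalization repeated. Without deficient vegetable oil replicate 1, Fdft1 turned from -0.31 to 0.046 and Lss to 0.29. In the same comparison 7 of 9 macrophage markers and 6 of 9 tubular injury markers were called lower in deficient fish oil kidneys, and 9 of 9 and 8 of 9 had negative differences. The marker sums were 2340 to 2507 and 16256 to 20978 in deficient fish oil kidneys, against 4825 to 6659 and 38271 to 53621 in deficient vegetable oil kidneys, and their part in the values of the 7 genes was not tested.

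**Figure D3:**
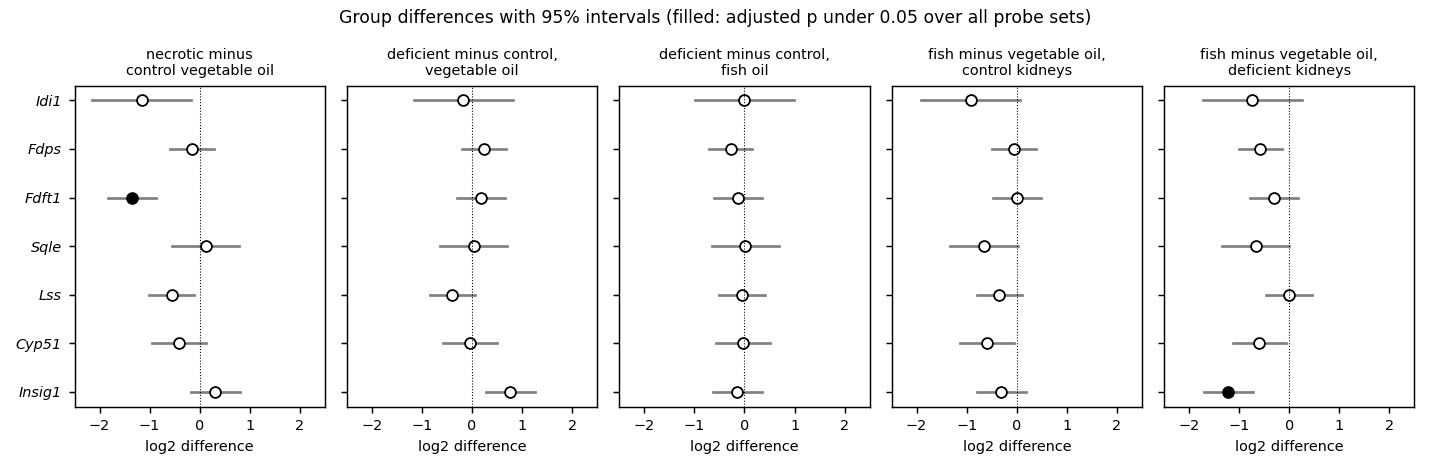
Log2 differences (horizontal axis) of the 7 genes in 5 comparisons, as points with 95% intervals, filled where the limma adjusted p over all probe sets was under 0.05. The filled points are Fdft1 in necrotic against control vegetable oil kidneys, at -1.36, and Insig1 in deficient fish oil against deficient vegetable oil kidneys, at -1.21.

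The choline effect was also set against itself under both oils. For kidneys without the necrotic label, the difference of the choline effects, fish oil minus vegetable oil, was called for none of the 7 genes. The background was 0.103%. This difference was -0.90 ± 0.30 for Insig1 (limma adjusted p = 0.406) and -0.31 ± 0.30 for Fdft1 (limma adjusted p = 0.741). On the second Insig1 probe set it was -0.46 ± 0.30 (limma adjusted p = 0.63). With necrotic kidneys as the deficient vegetable oil group, the difference of effects was called for Fdft1 alone, at 1.23 ± 0.30 (limma adjusted p = 0.0376). That was 1 of 7 genes, at a background of 8.72% called and 4.9% called higher. The necrotic group differs from its control in the necrotic label as well as in choline, and the 2 cannot be told apart here. The Fdft1 call ended without any 1 of the 8 arrays, at limma adjusted p from 0.06 to 0.118. Deficient fish oil against necrotic kidneys gave 2 calls of 7, Fdft1 higher and Insig1 lower, at a background of 19.7% of all probe sets called, 9.25% higher and 10.5% lower.

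The order of group means differed from gene to gene. Necrotic kidneys were lowest for Fdft1, Idi1 and Lss, deficient fish oil kidneys for Fdps, Cyp51 and Insig1, and control fish oil kidneys for Sqle. Deficient vegetable oil kidneys were highest for Fdft1, Fdps and Insig1, control vegetable oil kidneys for Idi1, Lss and Cyp51, and necrotic kidneys for Sqle. Of neighbours in these orders, Fdft1 in deficient fish oil and necrotic kidneys was the only pair whose difference was called, and the other neighbours had limma adjusted p of 0.253 or more.

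The gaps between the pools of a group also differed from those of all probe sets in some groups. In deficient vegetable oil kidneys all 7 genes were higher on replicate 1, by 0.08 for Insig1 to 1.26 for Idi1, with a median gap of 0.59. The median absolute gap over all probe sets in that group was 0.20, and 41.6% of probe sets were higher on replicate 1. In control fish oil kidneys all 7 were again higher on replicate 1, by 0.25 to 1.14, with a median gap of 0.39 against 0.16 over all probe sets. The injury markers also separated the deficient vegetable oil pools, with sums of 38271 on replicate 1 and 53621 on replicate 2, and their part in the gaps was not tested. In the remaining groups 5 of the 7 genes were higher on replicate 1 in necrotic, 6 in control vegetable oil and 5 in deficient fish oil kidneys, against 57.4%, 49.9% and 50.1% of all probe sets. In necrotic kidneys the pools were close, with a median gap of 0.06 for the 7 genes against 0.19 for all probe sets.

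Over the 10 arrays, Pearson's r between pairs of the 7 genes ran from -0.16 for Sqle and Fdft1 to 0.92 for Idi1 and Cyp51, given as a description since arrays share groups and diets. Sqle and Cyp51 had an r of 0.82, Sqle and Insig1 0.76, and Insig1 and Fdft1 -0.08. Outside the 7 genes, the one most like their mean was Msmo1, the sterol oxidase that acts after Cyp51, with an r of 0.95. Next came Chchd1 at 0.93, Usp18, an interferon-induced protease, at 0.90, Srebf2, which encodes SREBP2, at 0.90, and Hsd17b7, a later sterol enzyme, at 0.90. Mlph, Eno1, Rig1, Gbp5 and Igtp followed, at 0.88 to 0.89. The lowest r with the mean was that of Zbtb12, at -0.98, stronger in size than that of Msmo1. Genes named for likeness are extremes among all named genes on only 10 arrays. No background for such r was drawn, and no link between them and the 7 genes was tested. For Idi1 the closest genes were the interferon-induced Usp18 at 0.97 and Gbp5 at 0.96. For Cyp51 they were Isg15, an interferon-induced ubiquitin-like protein, at 0.94 and Hsd17b7 at 0.94. Insig1 was closest to Nabp1 at 0.96 and to the chemokine Ccl2 at 0.94, Fdft1 to Dus2 at 0.99, Lss to Pgm3 at 0.97, Sqle to Commd10 at 0.93 and Fdps to Fam3d at 0.90.

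The remaining enzymes of synthesis were read from a list of 15, of which 12 were measured. Between necrotic and control vegetable oil kidneys 3 of the 12 fell and none rose, with a median of -0.44, where 10.7% of all probe sets were called lower. Dhcr7, the last reductase of the route, fell by 1.31 ± 0.31 on the log2 scale (limma adjusted p = 0.018) and Tm7sf2, a sterol reductase, fell by 1.18 ± 0.20 (limma adjusted p = 0.0037). Msmo1 fell by 0.68 ± 0.18 (limma adjusted p = 0.0315). The Dhcr7 and Msmo1 calls ended without either array of the necrotic or the control group, at limma adjusted p from 0.0633 to 0.184. Between control fish oil and control vegetable oil kidneys none of the 12 was called, with 9 negative, 3 positive and a median of -0.20. Between deficient fish oil and deficient vegetable oil kidneys none of the 12 was called, with 8 negative, 4 positive and a median of -0.09. Of those, Msmo1 had a difference of -0.66 ± 0.18 (limma adjusted p = 0.153) and Dhcr7 one of 0.64 ± 0.31. Against necrotic kidneys, deficient fish oil kidneys had higher Dhcr7, by 1.78 ± 0.31 (limma adjusted p = 0.0042), and Tm7sf2, by 1.35 ± 0.20 (limma adjusted p = 0.00181). Lbr, which carries the same sterol reductase activity as Tm7sf2 and is also a nuclear envelope protein, was lower there by -0.79 ± 0.13 (limma adjusted p = 0.00369).

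**Figure D4:**
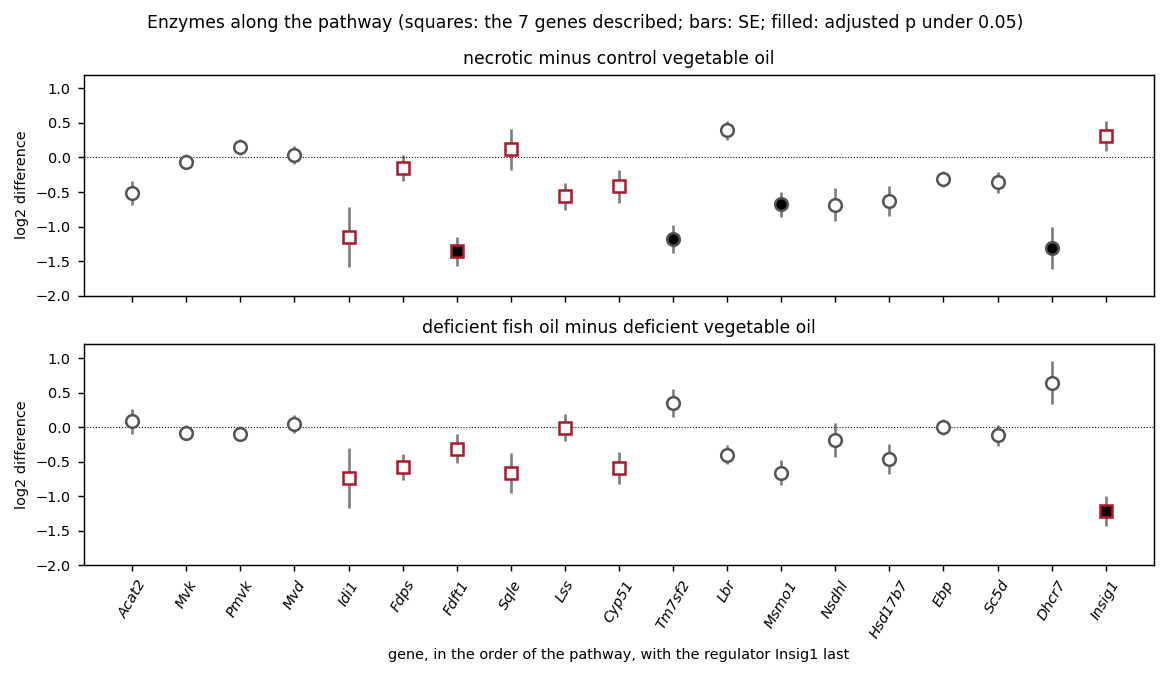
Log2 differences (vertical axis, bars for SE) of the measured enzymes in pathway order and of the regulator Insig1, for necrotic minus control vegetable oil kidneys (top) and deficient fish oil minus deficient vegetable oil kidneys (bottom). Squares are the 7 genes and filled symbols passed the test: Fdft1, Tm7sf2, Msmo1 and Dhcr7 in the top panel and Insig1 in the bottom one.

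Of 13 genes of sterol sensing and regulation, 10 were measured, and between necrotic and control vegetable oil kidneys 3 fell and none rose, where 10.7% of all probe sets were called lower. Nr1h3, the oxysterol receptor LXR alpha, fell by 0.77 ± 0.13 (limma adjusted p = 0.00434), and Insig2, the paralogue of Insig1, fell by 0.58 ± 0.11 (limma adjusted p = 0.00655). Insig1 itself had a difference of 0.31 in that comparison. The third, Erlin1, which takes part in the turnover of HMG-CoA reductase, fell by 0.72 ± 0.22 (limma adjusted p = 0.0485). The Erlin1 call ended without any 1 of the 4 arrays, at adjusted p from 0.0513 to 0.24. Srebf2 had a difference of -0.19 ± 0.14 between necrotic and control vegetable oil kidneys and -0.31 ± 0.14 between deficient fish oil and deficient vegetable oil kidneys, neither called.

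Of 13 listed genes of uptake and lysosomal release 10 were measured, and between necrotic and control vegetable oil kidneys 3 rose and 1 fell, with a median of 0.26, where 20.9% of all probe sets were called. Lrp1, a receptor for lipoprotein remnants and many other ligands, rose by 1.41 ± 0.17 (limma adjusted p = 0.000754). Scarb1, the receptor for high-density lipoprotein, rose by 0.92 ± 0.12 (limma adjusted p = 0.00105). Npc1, the lysosomal cholesterol exporter, rose by 0.46 ± 0.12 (limma adjusted p = 0.0273), and Stard4, a sterol carrier, fell by 0.48 ± 0.15 (limma adjusted p = 0.0492). The Npc1 and Stard4 calls ended without any 1 of the 4 arrays. The differences were then 0.41 to 0.52 for Npc1 and -0.60 to -0.36 for Stard4. Both calls also ended in a fit of the 2 groups alone. The Npc1 call ended with each array centred on its median, at 0.36 ± 0.12 (limma adjusted p = 0.0658). The Stard4 call ended with the replicate block (limma adjusted p = 0.0667). Macrophages also carry Lrp1 and Npc1, and 8 of 9 macrophage markers rose in the same comparison, whose part in these values was not tested. None of the 10 was called between deficient and control fish oil or between control fish oil and control vegetable oil kidneys.

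Among 13 genes of efflux, esterification and oxysterols, 6 rose and 1 fell between necrotic and control vegetable oil kidneys, where 20.9% of all probe sets were called. The macrophage marker sums, 11727 to 12041 in necrotic and 2972 to 3182 in control vegetable oil kidneys, moved with them, and their part was not tested. Abca1, the exporter of cholesterol to apolipoproteins, rose by 1.63 ± 0.24 (limma adjusted p = 0.00191). Cyp7b1 was called higher too, with a mean of 8.31 in necrotic and 7.29 in control vegetable oil kidneys. Its difference ran from 0.80 to 1.25 over the alternatives. Abcg1, an exporter to high-density lipoprotein, rose by 1.04 ± 0.23 (limma adjusted p = 0.014), a call that ended without necrotic replicate 1 (0.0871) or control vegetable oil replicate 1 (0.0975). Apoe, the apolipoprotein that takes up cellular cholesterol, fell by 0.88 ± 0.18 (limma adjusted p = 0.00833), a call that ended without control vegetable oil replicate 2 (0.0586). Ch25h, which makes 25-hydroxycholesterol, an oxysterol that binds the INSIG proteins, was the only gene of these lists of sterol metabolism called between deficient and control vegetable oil kidneys, where it rose by 1.67 ± 0.21 (limma adjusted p = 0.00945). In deficient fish oil kidneys Ch25h was lower than in deficient vegetable oil kidneys by -1.83 ± 0.21 (limma adjusted p = 0.00546), as was Insig1. The Ch25h rise was lost without control vegetable oil replicate 1 (limma adjusted p = 0.107) or replicate 2 (0.0652), and its difference between the oils without deficient fish oil replicate 2 (0.0618). Both Ch25h calls also ended in fits of the 2 groups alone, at 0.0985 and 0.109.

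Fatty acid synthesis, whose genes are partly SREBP targets too, was read from 15 genes, all measured. Of these 12 fell between necrotic and control vegetable oil kidneys and none rose, with a median of -0.91, at a background of 20.9% of all probe sets called and 10.7% called lower. Adipocytes also make fatty acids. The summed intensity of 7 adipocyte markers was 1955 to 2844 in necrotic and 3921 to 5362 in control vegetable oil kidneys. The markers did not move together. Of the 7, 4 had negative differences, down to -4.05, and 2 of these were called. The other 3 were positive, up to 0.78, and not called. The part of these markers in the fatty acid synthesis values was not tested. Acss2, which makes acetyl-CoA from acetate for both routes, fell by 2.16 ± 0.19 on the log2 scale (limma adjusted p = 0.000178). Scd, the stearoyl-CoA desaturase, was also lower in control fish oil than in control vegetable oil kidneys, by -2.85 ± 0.26 (limma adjusted p = 0.00955), and in deficient fish oil than in deficient vegetable oil kidneys, by -1.96 ± 0.26 (limma adjusted p = 0.0115). The call with choline ended without any 1 of the 4 arrays, at limma adjusted p from 0.0522 to 0.0856, and the call without choline ended without deficient fish oil replicate 2 (0.0765). Both Scd calls ended in fits of the 2 groups alone, at 0.0554 and 0.125. In the non-sterol isoprenoid branch, 9 of 11 listed genes were measured, and 1 rose and 2 fell between necrotic and control vegetable oil kidneys, where 20.9% of all probe sets were called. The 1 rise, of Fntb, a farnesyltransferase subunit, was 0.35 ± 0.11 (limma adjusted p = 0.0475) and was called in 3 of 13 alternatives, ending with each array left out and with each rescaling. Coq2, of ubiquinone synthesis, fell by 0.68 ± 0.13 (limma adjusted p = 0.00717), a call that ended without control vegetable oil replicate 2 (0.0605). Rabggtb, of Rab prenylation, fell by 0.50 ± 0.11 (limma adjusted p = 0.0131), a call that ended without necrotic replicate 1 (0.0524) or control vegetable oil replicate 1 (0.103).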

How the data were processed

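Kidney RNA from pools of 3 rats was measured on 10 arrays. The authors deposited 1 table of log2 intensity for 29214 probe sets, made with RMA per the submitters' processing notes. Which program and which grouping of probes were used is not given in the sources used here. Groups were taken from the sample labels. Probe sets were named from the platform annotation, in which 15633 are listed, 15310 of them with 1 symbol and 323 with several, which were not named. No filter on low values was set. A linear model with 5 group means and moderated variances was fitted to all probe sets (R 4.3.3, limma 3.58.1; 5 residual and 3.59 prior degrees of freedom), with Benjamini-Hochberg adjustment across the whole table for each comparison. Precision is limited by the 2 arrays per group. The steps were tested on simulated data. All 8 genes were to be named, with at most 4 called genes from each list, and the 10 genes most like their mean. A few further list genes were chosen after their values were seen. The genes and lists were chosen with earlier results of these data known. Alternatives were median centring, quantile and cyclic loess normalization, a filter on low values and a trended, robust prior for the variances. Others were a fit of only the groups compared, 1 probe set per gene and the mean of a gene's probe sets. The replicate number as a block and leaving out each array completed them, with a crossed block in necrotic against deficient vegetable oil kidneys. Promoters came from RefSeq on GRCr8, and the array files name no build. No batch is given in the labels.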

Additional observations from a re-analysis of the deposited data

Results flagged for a closer look

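With necrotic kidneys as the deficient vegetable oil group, the difference from control kidneys differed between the oils for 1 of the 7 genes, by a direct test. Necrotic kidneys differ from control kidneys in their label as well as in choline, and the 2 cannot be told apart in this test. For Fdft1 the difference of the effects, fish oil minus vegetable oil, was 1.23 on the log2 scale (limma adjusted p = 0.0376). With the deficient vegetable oil kidneys that lack that label, it was -0.31 ± 0.30 (limma adjusted p = 0.741). Of the listed neighbours of the pathway, only genes that passed the test with necrotic kidneys are named here. They were 1 of 12 other synthesis enzymes, Tm7sf2 at 1.31, and 1 of 10 regulation genes, Insig2 at 0.60. Of 10 uptake genes 2 passed, Scarb1 at -1.05 and Lrp1 at -1.22. Of 13 efflux genes 3 passed, Abca1 at -1.36, Soat1 at -0.70 and Apoe at 1.02. None of 9 genes of the isoprenoid branch passed. In fatty acid synthesis 4 of 15 passed, Acss2 at 2.30, Scd at 2.10, Pnpla3 at 1.26 and Acacb at 1.15. The limma adjusted p of these 11 genes ran from 0.00209 for Acss2 to 0.0482 for Insig2, at a background of 8.72% of all probe sets called. Of 17 alternatives, which include leaving out each array, Acss2 and Scarb1 were called in 17. Scd was called in 16 and lost without control vegetable oil replicate 1 (0.0515), and Acacb in 16 and lost without control vegetable oil replicate 2 (0.0547). The calls held in 12 of 17 for Lrp1, 11 for Pnpla3, 10 for Abca1 and Tm7sf2, 9 for Fdft1, 8 for Apoe and Soat1 and 5 for Insig2, with limma adjusted p up to 0.159.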

How the results depend on the processing

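Fdft1 was called in necrotic against control vegetable oil kidneys, in necrotic against deficient vegetable oil kidneys and in deficient fish oil against necrotic kidneys under every alternative run. Of 1890 alternative values of single genes, 1622 kept direction and call, 204 kept direction and lost the call, 7 gained one and 57 changed sign, none of them for a difference called as reported. The count of the 7 genes called in necrotic against control vegetable oil kidneys was 1 as reported, 3 in a fit of only the groups compared (Idi1 and Lss gained), 2 with the replicate block (Idi1, limma adjusted p = 0.0387) and 2 with 1 probe set per named gene (Lss). In deficient against control vegetable oil kidneys it was 0, and 1 with the replicate block (Insig1, limma adjusted p = 0.0497). In deficient fish oil against deficient vegetable oil kidneys it was 1, and 0 in a fit of only the groups compared. In deficient fish oil against necrotic kidneys it was 2, 1 both with median centring and in a fit of only the groups compared, and 3 with the replicate block (Sqle gained, limma adjusted p = 0.0285). Leaving out each array gave 1 to 1 calls in necrotic against control vegetable oil kidneys, 1 to 2 in necrotic against deficient vegetable oil, 0 to 0 in deficient fish oil against deficient vegetable oil and 1 to 2 in deficient fish oil against necrotic kidneys. It gave 0 to 0 for the difference of choline effects with necrotic kidneys and in each of the other comparisons. The 2 calls between necrotic and deficient vegetable oil kidneys came without deficient vegetable oil replicate 2, where Idi1 passed (limma adjusted p = 0.0478). Over all probe sets, same-numbered arrays deviated together with r from -0.17 to 0.14, so the numbers were not taken as pairs. That check did not test the 7 genes by themselves, of which 5 to 7 were higher on replicate 1 in every group. The block moved all calls in necrotic against control vegetable oil kidneys to 5779, against 6098 without it. With the numbers of the deficient vegetable oil group crossed, 1 of the 7 genes and 2794 probe sets were called between necrotic and deficient vegetable oil kidneys, against 2860 without a block. Signs of small differences turned with the scaling. Under median centring Sqle became -0.028 in deficient against control vegetable oil, Idi1 0.00383 in deficient against control fish oil, Lss 0.054 in deficient fish oil against deficient vegetable oil, and Sqle 0.053 and 0.016 in the differences of choline effects without and with necrotic kidneys. Under quantile normalization Sqle became -0.00977 in deficient against control fish oil, Lss 0.024 in deficient fish oil against deficient vegetable oil and Cyp51 -0.041 in the difference of choline effects without necrotic kidneys. Under cyclic loess Cyp51 became 0.00145 in deficient against control vegetable oil, Sqle -0.00832 in deficient against control fish oil and Cyp51 -0.052 in that same difference of effects. With each array left out, signs turned as follows. In necrotic against control vegetable oil Sqle ran from -0.10 to 0.33. In deficient against control vegetable oil Sqle ran from -0.36 to 0.42, Idi1 from -0.81 to 0.45, Fdft1 from -0.18 to 0.54 and Cyp51 from -0.32 to 0.24. In necrotic against deficient vegetable oil Sqle ran from -0.30 to 0.47 and Lss from -0.46 to 0.12. In deficient against control fish oil Sqle ran from -0.25 to 0.30, Insig1 from -0.37 to 0.086, Idi1 from -0.57 to 0.57, Fdft1 from -0.26 to 0.0028, Cyp51 from -0.33 to 0.27 and Lss from -0.25 to 0.14. In control fish oil against control vegetable oil Fdft1 ran from -0.13 to 0.13 and Fdps from -0.19 to 0.072. In deficient fish oil against deficient vegetable oil Fdft1 ran from -0.67 to 0.046 and Lss from -0.30 to 0.29. For the difference of effects without necrotic kidneys Sqle ran from -0.40 to 0.38, Idi1 from -0.45 to 0.80, Fdft1 from -0.67 to 0.050 and Cyp51 from -0.30 to 0.30, and with them Sqle ran from -0.37 to 0.18 and Fdps from -0.27 to 0.030. The cause was not tested. With 2 pools per group, differences near the size of the gap between pools were not resolved.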
